A study of Mus musculus with 6 samples.

Results

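The autophagy and mitophagy genes described here are 10 genes chosen by symbol, namely Ulk1, Becn1, Map1lc3a, Map1lc3b, Gabarapl1, Sqstm1, Bnip3, Bnip3l, Tfeb and Ctsl. All 10 were among the 24411 genes listed in the count table, and 10 of 10 passed the expression filter that left 12828 genes to test. They were measured by polyA RNA sequencing of the soleus (Sol), a slow postural muscle of the lower leg, from 3 WT and 3 LSD1-mKO mice after voluntary wheel running (VWR). LSD1-mKO mice lack the histone demethylase LSD1, encoded by Kdm1a, in skeletal muscle. They carried Lsd1 flox/flox alleles and a CreERT2 recombinase driven by the human ACTA1 promoter, which is active in differentiating and differentiated muscle cells, so other cell types of the muscle keep the gene. WT mice had the floxed Lsd1 alleles without CreERT2, and all mice were on the C57BL/6 background. Both genotypes were 8 weeks old at the start, were housed singly with a running wheel for 38 days, got used to it over 3 days, then received tamoxifen (75 mg/kg on each of 5 days), and had their running recorded over the following 30 days. Per the study's methods, mice were fasted, with the wheel withheld, before tissue was taken, so the levels are those of fasted mice. The series holds no sedentary mice, so each value is a comparison of genotypes after running and not an effect of running.

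Autophagy delivers cytoplasmic material to the lysosome for digestion. The ULK1 kinase complex and the Beclin-1 lipid kinase complex start a membrane cup, small proteins of the ATG8 family (the LC3 and GABARAP proteins) are attached to its lipids, and receptors such as p62 link the cargo to them. In mitophagy the cargo is a mitochondrion, marked either by receptors in its outer membrane, such as BNIP3 and NIX, or by the kinase PINK1, which leads to its ubiquitination. TFEB is a transcription factor that activates genes of autophagy and of the lysosome, and cathepsins are the proteases that digest the cargo. Skeletal muscle uses this route in fasting, atrophy and exercise, and transcript levels do not measure the flux through it.

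The libraries held 8940206 to 10989846 estimated counts in WT and 10984664 to 13798059 in LSD1-mKO, and the 10 genes rested on 663 to 10803 counts per gene and library. Kdm1a was at 40.5, 38.2 and 33.6 counts per 1000000 after TMM normalization (CPM) in the WT mice and at 14.6, 16.6 and 16.6 CPM in the LSD1-mKO mice. Its log2 fold change was -1.23 ± 0.11 (SE), with an adjusted p of 0.0160 in edgeR's quasi-likelihood test. With 1 mouse of either genotype left out it stayed between -1.30 and -1.17, although the adjusted p of Kdm1a rose to as much as 0.299 among the alternatives. The 7 skeletal muscle markers checked, among them the slow troponin gene Tnnt1, summed to 91796 to 121530 CPM, and none was at 0. WT replicate 1 stood apart from the other WT mice. The chi-square per gene between it and the other WT libraries was 20.3 and 17.8, against 10.1 between WT replicates 2 and 3. Its 5 fibroblast markers summed to 943 CPM, against 2593 and 3054 CPM in the other WT mice. LSD1-mKO replicate 1 differed from its group in the same measures, with a chi-square per gene of 16.9 and 13.7 to the other LSD1-mKO libraries, against 9.88 between those, and fibroblast markers of 2033 CPM against 1096 and 1187 CPM. The most distant pair was WT replicate 3 and LSD1-mKO replicate 2, at 23.6. Other pairs across genotypes were closer than these distances of either replicate 1 to its own group. WT replicate 1 and LSD1-mKO replicate 3 were at 11.79, and WT replicate 3 and LSD1-mKO replicate 1 at 11.45. Every mouse was left out in turn. Without LSD1-mKO replicate 1 no sign among the 10 genes changed and 0 of them had an unadjusted p under 0.05, and the effect of WT replicate 1, which turned the most signs, is given beside the results. In whole muscle, fewer cells of a type and less RNA per cell cannot be told apart.

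None of the 10 genes differed between the genotypes once p was adjusted over all genes tested. Over all genes tested, 0.0156% passed that test. Bnip3, Map1lc3a and Gabarapl1 had the largest fitted differences, at 122%, 119.97% and 119.5% of the WT mean, and the remaining genes lay between 90.4% and 112%. In the fit, 7 of the 10 genes were higher and 3 lower in LSD1-mKO. The median of their log2 fold changes was 0.08, against -0.02 over all genes, of which 45.2% were fitted higher. At an unadjusted p under 0.05, 1 gene (Map1lc3a) was higher and 0 were lower, beside 3.52% and 2.88% of all genes (6.4% in either direction). From the lowest to the highest bound, the 95% intervals of the 10 genes ran from 70.7% to 169% of WT, so a change of 2-fold in either direction lay outside each of them.

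**Figure D1:**
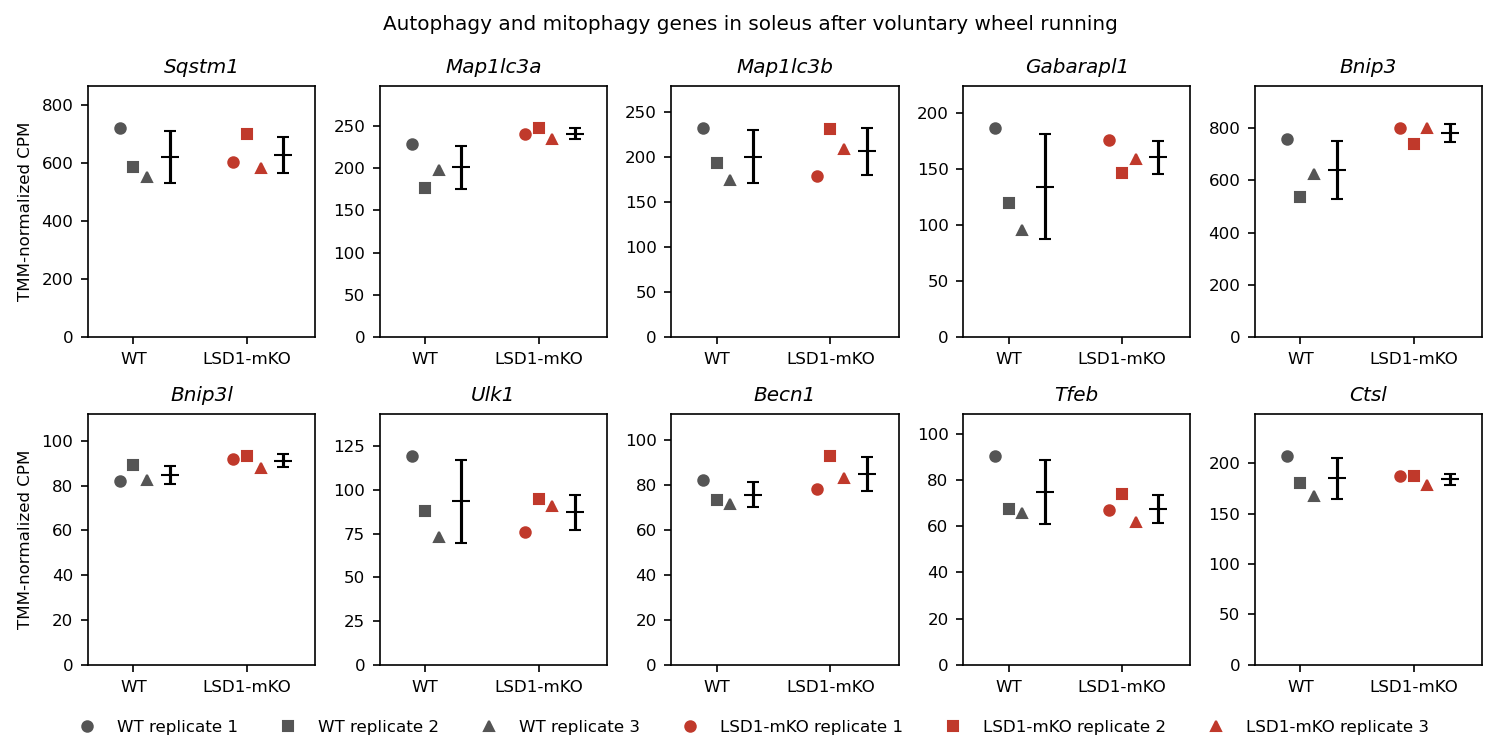
TMM-normalized CPM (y axes, each starting at 0) of the 10 genes in each of 3 WT (grey) and 3 LSD1-mKO (red) mice, with the marker shape giving the replicate number and the black bar the mean ± SD of each genotype. Map1lc3a is the gene whose genotypes do not overlap, and WT replicate 1 is the highest WT mouse in 9 of the 10 panels.

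Ulk1 encodes the kinase that starts autophagosome formation and is held in check by mTORC1. It lies on the minus strand of chromosome 5 (GRCm38, 110784488 to 110810097). Its level was 119.7, 88.0 and 73.0 CPM in WT replicates 1 to 3 and 75.9, 95.1 and 90.7 CPM in LSD1-mKO replicates 1 to 3. The highest and the lowest mouse were both WT, so the genotypes overlapped. The means were 93.6 ± 23.8 CPM in WT and 87.2 ± 10.1 CPM in LSD1-mKO (SD, n = 3 each). In the fit Ulk1 had a log2 fold change of -0.10 ± 0.18 (SE), with a 95% interval from -0.50 to 0.30 and an adjusted p of 0.933 (edgeR). Without WT replicate 1 it was 0.12, so the sign of the Ulk1 difference rested on that mouse.

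Becn1 encodes Beclin-1, the regulatory subunit of the class III PI3-kinase complex that marks the forming membrane. It lies on the minus strand of chromosome 11 (101285952 to 101302286). The WT mice had 82.0, 73.3 and 71.5 CPM and the LSD1-mKO mice 78.0, 92.9 and 82.9 CPM. WT replicate 1 lay inside the LSD1-mKO range and the other WT mice below it. The mean was 75.6 ± 5.60 CPM in WT and 84.6 ± 7.58 CPM in LSD1-mKO (SD, n = 3 each). The log2 fold change of Becn1 was 0.16 ± 0.10 (SE), with an adjusted p of 0.781 (edgeR). An exact permutation test of the CPM, 2-sided over the 10 splits of the 6 mice, gave p = 0.2, and the smallest p this design allows is 0.1.

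Map1lc3a encodes LC3A, an ATG8 protein that is attached to the autophagosome membrane. The gene lies on the plus strand of chromosome 2 (155276297 to 155278073). Its level was 228, 176 and 197 CPM in the WT mice and 239.9, 247 and 234 CPM in the LSD1-mKO mice. Each LSD1-mKO mouse was above each WT mouse, a pattern shown by 6.63% of all genes tested. The 3 LSD1-mKO mice were also close to each other, with a coefficient of variation of 2.71%, against 12.9% in WT. The means were 200.5 ± 25.9 CPM and 241 ± 6.52 CPM (SD, n = 3 each), and the log2 fold change was 0.26 ± 0.11 (SE), with a 95% interval from 0.02 to 0.51. The unadjusted p of Map1lc3a was 0.0373 and the adjusted p 0.745 (edgeR), and the adjusted p was 0.185 or more in every alternative tried. An exact permutation test, 2-sided, gave p = 0.1, the smallest it can give. The fold change was 0.37 without WT replicate 1 and 0.18 without WT replicate 2, and with any mouse other than WT replicate 1 left out the unadjusted p was no longer under 0.05.

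Map1lc3b encodes LC3B, the ATG8 protein used most often as a marker of autophagosomes. It lies on the plus strand of chromosome 8 (121590361 to 121598760), where Zcchc14, read at 38.2 to 46.9 CPM, overlaps it on the other strand. Its level was 232, 193 and 174 CPM in WT and 179, 231 and 208 CPM in LSD1-mKO. WT replicate 1 and LSD1-mKO replicate 2 were the highest mice and nearly level. Map1lc3b had a log2 fold change of 0.04 ± 0.13 (SE), with a 95% interval from -0.26 to 0.35 and an adjusted p of 0.957 (edgeR). The genotypes overlapped for Map1lc3b although they did not for Map1lc3a, but a difference between the fold changes of these genes was not itself tested.

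Gabarapl1 encodes another ATG8 protein, of the GABARAP group. The gene lies on the plus strand of chromosome 6 (129533160 to 129542346), and the gene 1700101I11Rik, at 0.12 to 1.41 CPM, overlaps it on the other strand. Its level was 187, 120.3 and 96.1 CPM in WT and 176, 147 and 159 CPM in LSD1-mKO. WT replicate 1 was above each LSD1-mKO mouse and the other WT mice were below each of them. Of the 10 genes, Gabarapl1 varied most between mice, with 1.95 times as much in the highest as in the lowest and a coefficient of variation of 34.998% in WT against 9.23% in LSD1-mKO. Its fitted log2 fold change was 0.26 ± 0.22 (SE), with a 95% interval from -0.24 to 0.76 and an adjusted p of 0.851 (edgeR). Without WT replicate 1 it was 0.57 ± 0.12, with an unadjusted p of 0.00191 and an adjusted p of 0.165, and without WT replicate 3 it was 0.07.

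Sqstm1 encodes p62, a receptor that binds ubiquitinated cargo and ATG8 proteins and is itself consumed by autophagy. It lies on the minus strand of chromosome 11 (50199366 to 50210827). Its level was 719.8, 586 and 551 CPM in WT and 601, 698 and 582 CPM in LSD1-mKO. The highest mice were WT replicate 1 and LSD1-mKO replicate 2, as for Map1lc3b. The means were nearly equal, at 619 ± 89.3 CPM and 627 ± 62.4 CPM (SD, n = 3 each). Sqstm1 had a log2 fold change of 0.02 ± 0.13 (SE), with an adjusted p of 0.9799 (edgeR) and a 95% interval that corresponds to 82.5% to 125% of WT.

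Bnip3 encodes a receptor of the outer mitochondrial membrane that binds ATG8 proteins directly and is induced by hypoxia and by FOXO factors. The gene lies on the minus strand of chromosome 7 (138890836 to 138909519). Its level was 756, 537 and 626 CPM in WT and 799, 739 and 800.3 CPM in LSD1-mKO. WT replicate 1 lay between LSD1-mKO replicates 1 and 2, and the other WT mice were below all of the LSD1-mKO mice. The means were 639.6 ± 110.1 CPM in WT and 779.5 ± 35.05 CPM in LSD1-mKO (SD, n = 3 each). The log2 fold change of Bnip3 was 0.29 ± 0.13 (SE), with a 95% interval from -0.02 to 0.59, an unadjusted p of 0.0625 and an adjusted p of 0.766 (edgeR). DESeq2 gave an unadjusted p of 0.0398 for the same gene and of 0.0325 for Map1lc3a, its only ones under 0.05 among the 10, beside 4.5% of all genes, and 0 of the 10 passed its adjusted test, beside 0.327%. The exact permutation test, 2-sided, gave p = 0.2. Without WT replicate 1 the fold change of Bnip3 was 0.43, with an unadjusted p of 0.00267 and an adjusted p of 0.185, and without WT replicate 2 it was 0.17.

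Bnip3l encodes NIX, the paralog of BNIP3, known for clearing mitochondria from maturing red blood cells. It lies on the minus strand of chromosome 14 (66985239 to 67008877). The WT mice had 82.2, 89.3 and 82.3 CPM and the LSD1-mKO mice 92.0, 93.4 and 87.8 CPM. Only WT replicate 2 reached into the LSD1-mKO range. Bnip3l was the steadiest of the 10 genes, with 1.14 times as much in the highest mouse as in the lowest. The log2 fold change was 0.11 ± 0.08 (SE), with a 95% interval from -0.08 to 0.29 and an adjusted p of 0.824 (edgeR). The summed red blood cell markers, at 201 to 535 CPM in WT and 259.8 to 420 CPM in LSD1-mKO, also overlapped, and their part in the Bnip3l values was not tested.

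Tfeb, which encodes the transcription factor that activates autophagy and lysosome genes, lies on the plus strand of chromosome 17 (47737030 to 47792419). Its level was 90.5, 67.5 and 65.9 CPM in WT and 66.9, 73.8 and 61.7 CPM in LSD1-mKO. WT replicate 1 was the highest of all mice and the other WT mice lay within the LSD1-mKO range. Tfeb had a log2 fold change of -0.14 ± 0.14 (SE), with a 95% interval from -0.46 to 0.17 and an adjusted p of 0.868 (edgeR). Without WT replicate 1 the Tfeb difference was 0.02 ± 0.10.

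Ctsl encodes cathepsin L, a lysosomal protease that rises in many forms of muscle atrophy. It lies on the minus strand of chromosome 13 (64359337 to 64370890). Its level was 207, 180.2 and 168 CPM in WT and 187, 187 and 178 CPM in LSD1-mKO. The LSD1-mKO mice all lay inside the WT range. The means were 185 ± 20.3 CPM and 184 ± 5.37 CPM (SD, n = 3 each). The log2 fold change of Ctsl was -0.01 ± 0.10 (SE), with an adjusted p of 0.989 (edgeR) and a 95% interval that corresponds to 85.1% to 116% of WT.

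RefSeq promoter windows, which run from 250 bases before to 50 bases after a transcription start, were matched for 7 of the 10 genes. These were Sqstm1, Map1lc3b, Gabarapl1, Bnip3, Ulk1, Tfeb and Ctsl, with 9 windows in all because Tfeb has 3. They were searched on both strands for CACGTG, the core of the E-box element that TFEB binds, GTAAACA, a forkhead element, and AAGGTCA, the site bound by estrogen-related receptors. No window held more than 1 match, so none overlapped. CACGTG was present for 2 of the 7 genes, Bnip3 and Ctsl, beside 8.09% of the 27025 genes with windows. By window it was present in 2 of the 9, beside 7.15% of all 32851 windows. GTAAACA was found in 0 of the 9 windows and AAGGTCA in 0 of the 9, against 3.65% and 4.72% of all windows. The windows of this pair are printed because they hold the E-box core. Their log2 fold changes were 0.29 ± 0.13 for Bnip3 and -0.01 ± 0.10 for Ctsl (SE), and the difference between them was not tested. Both are on the minus strand of GRCm38.p6, written 5′ to 3′ with the E-box core in capitals. Counted from the transcription start that defines each window, its first base is at -108 in Bnip3 (chr7:138909457-138909756) and at -236 in Ctsl (chr13:64370471-64370770). The Ctsl window lies wholly inside the gene as placed above (64359337 to 64370890), so the E-box core of Ctsl is within the annotated gene.
Bnip3: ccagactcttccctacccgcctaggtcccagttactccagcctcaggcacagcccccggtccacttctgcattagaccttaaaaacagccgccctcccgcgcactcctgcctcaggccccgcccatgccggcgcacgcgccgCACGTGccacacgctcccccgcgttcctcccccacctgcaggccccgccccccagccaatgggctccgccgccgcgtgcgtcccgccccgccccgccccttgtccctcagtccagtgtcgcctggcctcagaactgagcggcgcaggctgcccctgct
Ctsl: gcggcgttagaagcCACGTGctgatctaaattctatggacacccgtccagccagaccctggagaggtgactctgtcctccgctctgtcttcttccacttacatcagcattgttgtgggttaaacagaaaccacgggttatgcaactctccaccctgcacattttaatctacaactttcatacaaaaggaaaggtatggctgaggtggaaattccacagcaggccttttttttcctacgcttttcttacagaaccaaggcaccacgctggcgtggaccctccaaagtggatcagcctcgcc
The GC content of the windows was 71.7% for Bnip3, 50% for Ctsl and, among the other genes, between 46.3% for Gabarapl1 and 70.0% for the GC-richest Tfeb window. A match of letters is a description of the sequence, and binding in these windows was not measured in these libraries.

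In TMM-normalized CPM, most of the 10 genes were high in the same WT mouse. WT replicate 1 was the highest WT mouse for 9 genes, all but Bnip3l, whereas it was so for 40.0% of all genes tested. It was the highest of all 6 mice for 6 genes, namely Sqstm1, Map1lc3b, Gabarapl1, Ulk1, Tfeb and Ctsl, against 23.4% of all genes. LSD1-mKO replicate 2 had the highest CPM of the LSD1-mKO mice for 7 of the 10 genes, and the share over all genes was not computed. It was the highest of all 6 mice for 3 genes, against 13.2% of all genes. The SD over mice was larger in WT than in LSD1-mKO for 9 genes, with Becn1 the exception, and for 61.2% of all genes tested. The map of levels by mouse shows these rows side by side with the markers of other cell types.

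**Figure D2:**
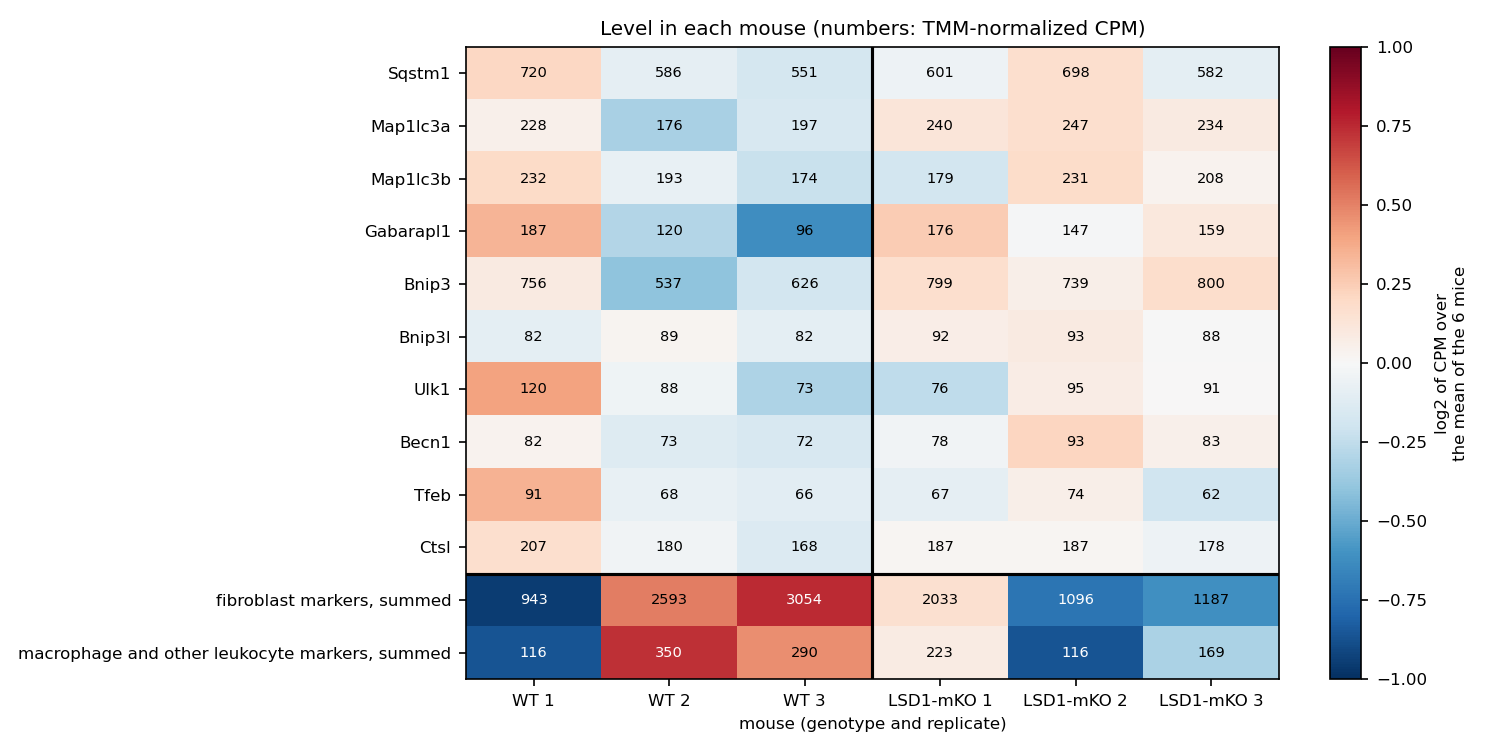
Level of each of the 10 genes, and of the summed fibroblast and leukocyte markers, in each of the 6 mice. The number in each cell is the CPM and the color the log2 ratio to the mean of the 6 mice, from -1 (blue) to 1 (red). WT 1 is red in most gene rows and blue in both marker rows, where it has 943 and 116 CPM.

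The genotypes were then compared without WT replicate 1, which leaves 2 WT mice. In that fit 10 of 10 genes were higher in LSD1-mKO, and their median was 0.16 on the log2 scale against -0.01 over all genes, of which 47.4% were fitted higher. Map1lc3a, Gabarapl1 and Bnip3 had an unadjusted p under 0.05, which is 3 of 10 genes, beside 14.4% of all genes in either direction. The LSD1-mKO mice were all above the remaining WT mice for 4 genes, these 3 and Becn1, beside 15.8% of all genes. Such a shift follows at least in part from the choice of the dropped mouse. In CPM, every member except Bnip3l had its top WT level in WT replicate 1. Its removal therefore lowers their WT means and raises their fold changes. Fewer of all genes peaked in that WT mouse, so the values over all genes are not a like comparison. The number of the 10 genes that passed the adjusted threshold was 0, as it was with all mice, and 0.0229% of all genes passed it. Leaving out this mouse moved the fold change of Gabarapl1 from 0.26 to 0.57 and turned the sign for Ulk1, Tfeb and Ctsl. Bnip3, Map1lc3a and Gabarapl1 belong to a cluster that the study formed from these same libraries and that holds genes higher in LSD1-mKO, so their direction here is not independent evidence.

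**Figure D3:**
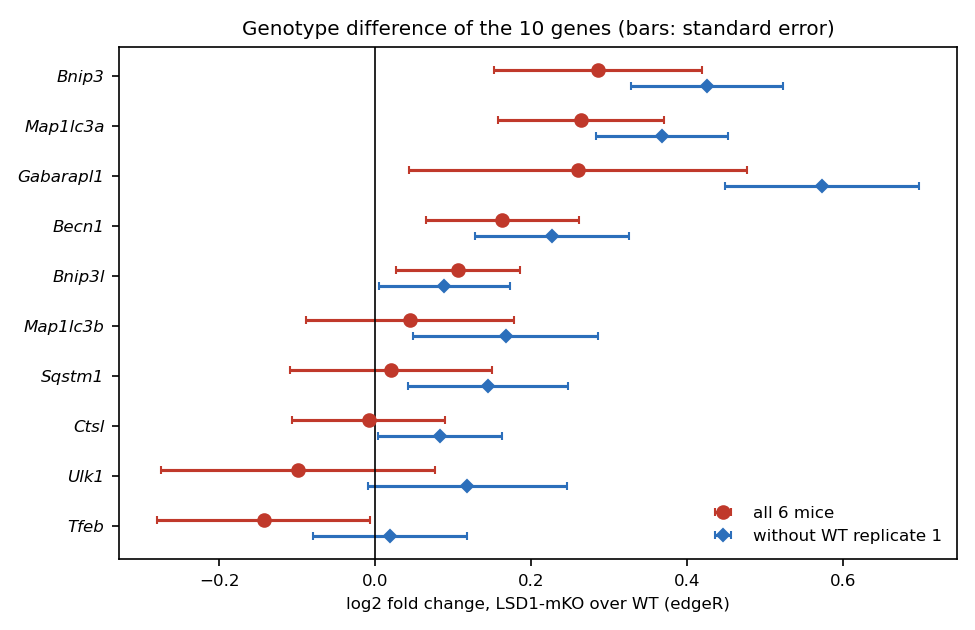
Log2 fold change of LSD1-mKO over WT (x axis) for the 10 genes, with all 6 mice (red circles) and without WT replicate 1 (blue diamonds). Bars are the standard error from edgeR. Gabarapl1 moves most, from 0.26 to 0.57, and Tfeb, Ulk1 and Ctsl cross 0.

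Summed markers of fibroblasts and of leukocytes varied between the mice, and the ranges of the other marker lists are given elsewhere in the text. The 5 fibroblast markers summed to 943, 2593 and 3054 CPM in WT and to 2033, 1096 and 1187 CPM in LSD1-mKO, and 5 of 5 were fitted lower in LSD1-mKO, with 0 at an unadjusted p under 0.05. The 8 markers of macrophages and other leukocytes summed to 116, 350.1 and 290.2 CPM in WT and to 223, 116 and 169 CPM in LSD1-mKO, and 8 of 8 were fitted lower, with 1 at an unadjusted p under 0.05. No marker of either list was at 0. The mice with the least fibroblast RNA were WT replicate 1, LSD1-mKO replicate 2 and LSD1-mKO replicate 3. In CPM, these were the 3 highest mice for Map1lc3b, Ulk1 and Becn1, which is 3 of the 10 genes, beside 11.4% of all genes. The opposite pattern was shown by 13.4% of all genes. In TPM from the longest coding transcript, only Map1lc3b of these genes kept the pattern. There WT replicate 2 was above LSD1-mKO replicate 3 for Ulk1 (40.1 against 38.6) and above WT replicate 1 for Becn1 (39.9 against 38.4). Sqstm1 was also highest in WT replicate 1 and LSD1-mKO replicate 2. The part of these cell types in the values of the 10 genes was not tested.

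Levels of different genes were compared per length, as transcripts per 1000000 (TPM) from the longest coding transcript of each gene. Over the 6 mice Bnip3 was the most abundant, at 892 ± 111 TPM (SD, n = 6), above 98.8% of the genes tested. Sqstm1 followed at 515 ± 43.3 TPM and Map1lc3a at 438 ± 45.9 TPM, and the ranges of these neighbors overlapped. Gabarapl1, at 178 ± 35.7 TPM, and Map1lc3b, at 170.5 ± 17.8 TPM, also overlapped and were below Map1lc3a in every mouse at this transcript length. Tfeb (67.0 ± 7.21 TPM), Ctsl (66.2 ± 3.09 TPM) and Bnip3l (59.8 ± 4.95 TPM) formed a run in which each overlapped the next. Becn1, at 40.6 ± 3.60 TPM, and Ulk1, at 38.3 ± 5.80 TPM, were the lowest of the 10 genes and overlapped, and 75.5% of the genes tested were below Ulk1.

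The place of some genes in this order rested on the transcript length. With the median length of the coding transcripts, Ctsl was at 313 TPM and ranked 3, because its length fell from 6168 to 834 bases, Becn1 was at 156 TPM and Tfeb at 182 TPM. Gabarapl1, at 288 TPM, was then above Map1lc3a, at 279.7 TPM, with overlapping ranges, so the order of these genes was lost. Bnip3 and Sqstm1 remained the highest, at 808 and 532 TPM, and Ulk1 the lowest, at 29.0 TPM. With the length of the APPRIS principal transcript the order was that of the longest transcript, and the ranges of Bnip3 and Sqstm1 overlapped.

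The make-up of the ATG8 family was taken as each gene's share of the summed TPM of 5 genes, the 3 above with Gabarap and Gabarapl2. Map1lc3a held 33.9%, 33.0% and 36.8% in the WT mice and 37.1%, 37.4% and 36.8% in the LSD1-mKO mice. WT replicate 3 was level with the LSD1-mKO mice and the other WT mice were below them. The mean share was 34.6% ± 2.00 in WT and 37.1% ± 0.33 in LSD1-mKO (SD, n = 3 each). The difference of 2.51 percentage points had p = 0.2 in an exact permutation test, 2-sided. Gabarap held 28.0% ± 2.497 in WT and 25.7% ± 0.26 in LSD1-mKO, and Map1lc3b 14.5% ± 0.74 and 13.4% ± 1.56. The share of Gabarapl1 was 17.0%, 13.7% and 10.98% in the WT mice and 16.7%, 13.6% and 15.2% in the LSD1-mKO mice, so its WT range enclosed the LSD1-mKO range. The exact p of the 5 shares was between 0.2 and 0.7, and all 5 overlapped between genotypes. The shares themselves rested on the transcript length. With the median length Map1lc3a held 25.1% in WT and 26.8% in LSD1-mKO, and Gabarapl1 25.4% and 27.6%, while the exact p of the Map1lc3a difference was 0.4. Of the Bnip3 and Bnip3l transcripts together, Bnip3 held 93.2% ± 1.35 in WT and 94.1% ± 0.40 in LSD1-mKO, a difference of 0.86 percentage points with p = 0.5 in the exact permutation test. That difference was 0.14 percentage points without WT replicate 2 and 1.49 without WT replicate 1.

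**Figure D4:**
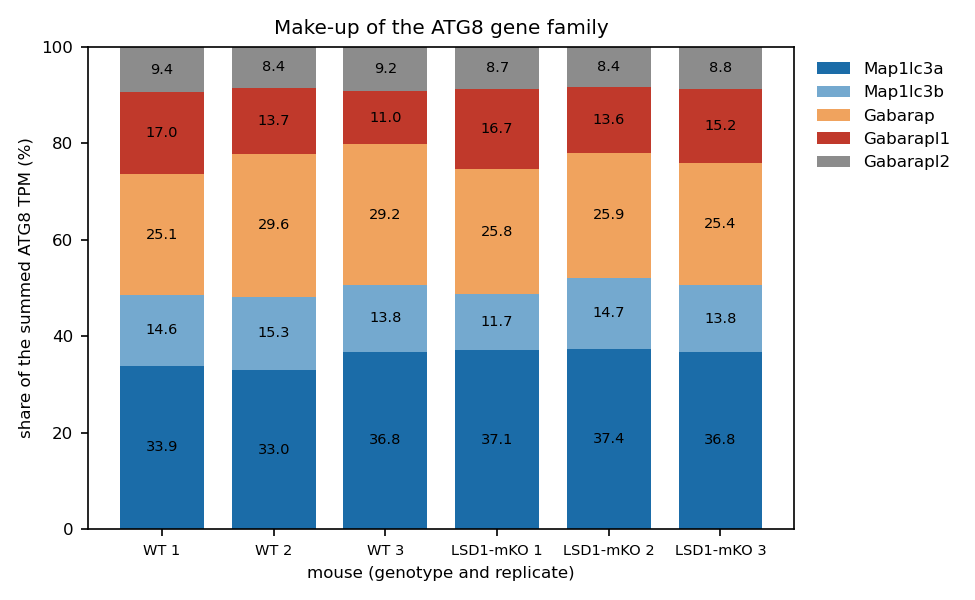
Share of each ATG8 gene (colors, bottom to top in the order of the legend read downward) in the summed TPM of the 5 genes, in percent (y axis), for each of the 6 mice (x axis). With the longest coding transcripts used here, Map1lc3a holds between 33.0% and 37.4% in every mouse, and Gabarapl1 between 10.98% and 17.0%; with median lengths these ranges are 23.8% to 27.6% and 20.8% to 30.3%.

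The rest of the pathway was read from 14 lists by role, with 111 genes, of which 110 were tested (Tfec, of the TFEB family, did not pass the filter). In the fit 53 were higher and 57 lower in LSD1-mKO, the median was -0.002 on the log2 scale, and 0 passed the adjusted threshold. At an unadjusted p under 0.05, 2 were higher (Map1lc3a and Wipi1) and 3 lower (Atg101, Foxo3 and Vps18), beside the 3.52% and 2.88% of all genes given above. The LSD1-mKO mice were all higher for 3 genes and all lower for 8, beside 6.63% and 6.1% of all genes. The ATG8 list had 5 of 5 genes fitted higher, with a median of 0.09, and the PINK1 list 4 of 4 with a median of 0.06. The lysosomal protease list had 8 of 10 fitted lower, with a median of -0.06. The list of mTORC1 and its inhibitors also had 8 of 10 fitted lower, with a median of -0.04. That list mixes subunits of the complex with genes that oppose it, so its count gives no direction for mTORC1. Without WT replicate 1, 67 of the 110 genes were fitted higher, and 11 higher and 6 lower had an unadjusted p under 0.05, beside 6.43% and 7.98% of all genes. How much of this change follows from the choice of the dropped mouse was not tested.

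**Figure D5:**
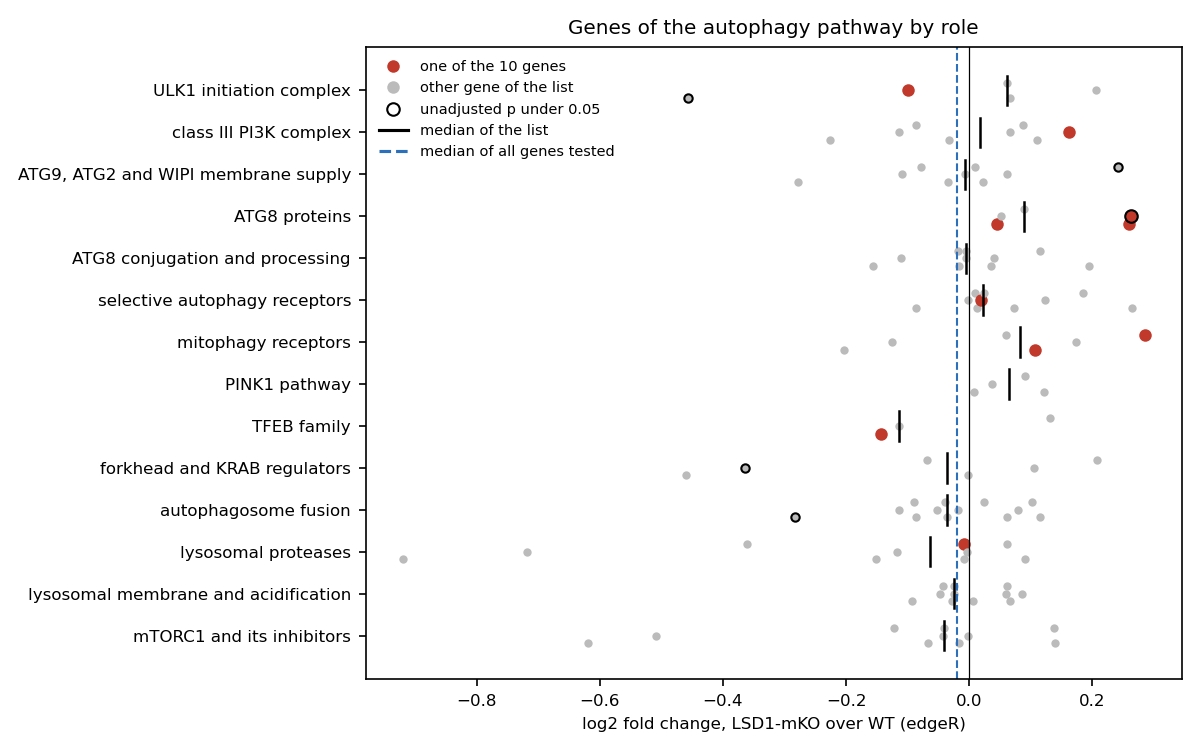
Log2 fold change of LSD1-mKO over WT (x axis) of the 110 tested pathway genes, in rows by role, from edgeR with all mice. Red points are the 10 genes, black outlines mark an unadjusted p under 0.05, black bars are list medians and the dashed line is the median of all genes, -0.02. The list medians lie between -0.11 and 0.09.

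Among the initiation and membrane genes, Atg101, a subunit of the ULK1 complex that stabilizes ATG13, had the smallest p. It was at 26.2, 21.6 and 23.0 CPM in WT and 16.7, 17.5 and 17.2 CPM in LSD1-mKO. Each LSD1-mKO mouse was below each WT mouse, opposite in direction to Map1lc3a. Its log2 fold change was -0.46 ± 0.11 (SE), with an unadjusted p of 0.00235 and an adjusted p of 0.448 (edgeR). Wipi1, which encodes a reader of the lipid made by the Beclin-1 complex, was at 88.4, 89.0 and 81.7 CPM in WT and 96.0, 106.5 and 104 CPM in LSD1-mKO. Its genotypes did not overlap either, and its log2 fold change was 0.24 ± 0.08, with an adjusted p of 0.680 (edgeR).

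The ATG8 genes outside the 10 did not pass the test. Gabarap, at 196 ± 8.01 CPM in WT and 203 ± 5.59 CPM in LSD1-mKO (SD, n = 3 each), had a log2 fold change of 0.05, and Gabarapl2 one of 0.09, each with an adjusted p of 0.908 or more (edgeR). Without WT replicate 1 the fold change of Gabarapl2 was 0.24, with an unadjusted p of 0.0205 and an adjusted p of 0.275. Pink1, which encodes the kinase that accumulates on damaged mitochondria, was abundant, at 1321, 1063 and 959 CPM in WT and 1073, 1339 and 1149.8 CPM in LSD1-mKO. As for Sqstm1, its highest mice were WT replicate 1 and LSD1-mKO replicate 2. The log2 fold change of Pink1 was 0.09 ± 0.15, with an adjusted p of 0.925 (edgeR).

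Of the regulators related to Tfeb, Tfe3 had a log2 fold change of -0.11 ± 0.16 and Mitf one of 0.13 ± 0.10, with adjusted p-values of 0.908 and 0.820 (edgeR). Foxk1, a forkhead repressor of autophagy genes, was at 42.7, 41.5 and 38.3 CPM in WT and 40.7, 37.3 and 38.6 CPM in LSD1-mKO, with overlapping genotypes and a log2 fold change of -0.07. Foxo3, an activator of Bnip3 and LC3 genes in muscle, was at 19.2, 18.3 and 26.0 CPM in WT and 18.2, 15.8 and 15.4 CPM in LSD1-mKO. Its genotypes were separated only by 18.3 against 18.2 CPM, and its log2 fold change was -0.36 ± 0.16, with an unadjusted p of 0.0455 and an adjusted p of 0.766 (edgeR). The unadjusted p of Foxo3 was 0.0693 in DESeq2 and 0.0523 in voom, and its fold change was -0.18 without WT replicate 3. Foxo1, another forkhead activator, ranged from 49.0 to 160.1 CPM within WT, with a log2 fold change of -0.46 ± 0.39 that was -0.02 without WT replicate 1 and -0.80 without WT replicate 2.

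In the fusion and degradation steps, Vps18, a subunit of the complexes that tether autophagosomes to lysosomes, was at 22.4, 21.1 and 20.8 CPM in WT and 18.1, 17.7 and 16.9 CPM in LSD1-mKO. Each LSD1-mKO mouse was lower, and the log2 fold change was -0.28 ± 0.10, with an unadjusted p of 0.0171 and an adjusted p of 0.675 (edgeR). In DESeq2 the unadjusted p of Vps18 was 0.0794. The lysosomal proteases with the most negative fold changes, singled out after their values were seen, were Ctss and Ctsk, cathepsins typical of macrophages and osteoclasts. Their log2 fold changes were -0.92 ± 0.43 and -0.72 ± 0.37 (SE). The unadjusted p was 0.0656 for Ctss and 0.0847 for Ctsk, and the adjusted p 0.766 for each (edgeR). Ctsk was at 14.5, 32.05 and 44.8 CPM in WT and 24.3, 18.2 and 13.2 CPM in LSD1-mKO. Ctss was at 7.47, 29.5 and 22.2 CPM in WT and 14.3, 7.38 and 9.96 CPM in LSD1-mKO, lowest, like the summed leukocyte markers, in WT replicate 1 and LSD1-mKO replicate 2. Ctsl had its highest CPM, 207, in WT replicate 1, the WT mouse with the lowest summed leukocyte markers. In TPM from the longest coding transcript it was at 68.8 in that mouse and at 69.5 in WT replicate 2. The part of leukocytes in these values was not tested.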

How the data were processed

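PolyA RNA of Sol muscle was sequenced from 3 WT and 3 LSD1-mKO mice after VWR, 1 library per mouse, as 75-base single-end reads. Per the labels and the study's methods, reads were aligned to mm10 with STAR. The deposited values are estimated counts for each gene that the authors did not normalize, and the tool, annotation and strand setting that made them are not given in the sources used here, so reads of genes that overlap on opposite strands cannot be told apart. In each library 8.33% to 9.94% of the values are not whole. A table of the authors' own DESeq2 comparison (mean, log2 fold change, its standard error, statistic and p-values) was not used. The 6 columns were assigned by the numbers that head them and open the sample titles.

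Estimated counts were rounded and fitted in R 4.3.3 with edgeR 4.0.16 (TMM, filterByExpr by genotype, quasi-likelihood test), with p-values adjusted by Benjamini-Hochberg over all 12828 tested genes at a threshold of 0.05. CPM of each gene were compared by exact permutation over the 10 splits of the mice. For TPM, lengths came from GENCODE vM21, where 23350 symbols were found as listed, 645 by an older name and 416 not at all. DESeq2 1.42.0 and limma 3.58.1 (voom), other scalings and filters, the replicate number as a block, and each mouse left out in turn were alternatives, and the APPRIS length was added after the data were seen. The fits were tested on simulated data. The members and lists were chosen with earlier results of these data known. The genes named are the 10 members, Kdm1a, Gabarap, Gabarapl2, Pink1, Tfe3, Mitf, Foxk1, Foxo1, Foxo3 and, in each list, genes with an unadjusted p under 0.05, up to 4 per list. Ctss and Ctsk fall outside this rule, and 1 other gene of the pathway is not reported here. Among summed markers, the endothelial list was at 404 to 599 CPM, the adipocyte list at 494 to 591 CPM, the Schwann cell list at 68.2 to 90.4 CPM and the satellite cell list at 36.5 to 49.9 CPM over the mice. The labels name separate mice, so p-values measure the spread between mice.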

Additional observations from a re-analysis of the deposited data

How the results depend on the processing

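The 10 genes were refitted under 14 alternatives, giving 140 fold changes. Of these, 130 kept the sign of the reported fit and 10 reversed, 9 of them with a mouse left out, and 0 of the 10 genes passed the adjusted threshold under any alternative. Over the fits that leave out 1 mouse, Sqstm1 ran on the log2 scale from -0.057 (without LSD1-mKO replicate 2, and -0.057 without WT replicate 3, -0.018 without WT replicate 2) to 0.14, Map1lc3b from -0.044 (without WT replicate 3, and -0.037 without LSD1-mKO replicate 2) to 0.17, Ulk1 from -0.25 to 0.12, Tfeb from -0.22 to 0.019 and Ctsl from -0.074 to 0.083, the last 3 reversing without WT replicate 1. Ctsl was also 0.017 without LSD1-mKO replicate 3 and 0.0071 with no filter on low counts. Among the other named genes, Gabarapl2 ran from -0.0088 (without WT replicate 2) to 0.24, Pink1 from -0.0054 (without WT replicate 3) to 0.23 and Tfe3 from -0.197 to 0.044 (without LSD1-mKO replicate 2). The cause was not tested.

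The count of the 10 genes at an unadjusted p under 0.05 was 1 as reported, 2 with DESeq2, 2 with library size alone, 2 with no filter, and 0 to 3 with a mouse left out (3 without WT replicate 1, 0 without each other mouse). For the pathway lists, the genes higher numbered 2 as reported, 4 with library size alone and 0 to 11 with a mouse left out, and the genes lower 3 as reported, 6 with no filter and 2 to 7 with a mouse left out. Over all genes at an adjusted p under 0.05, 1 was higher as reported, 33 with DESeq2, 2 with voom, 8 with no filter and 1 to 2 with a mouse left out, and 1 was lower as reported, 9 with DESeq2, 3 with no filter and 0 to 1 with a mouse left out. The lost gene was Kdm1a. Samples with the same replicate number did not deviate in the same direction (correlations of -0.364, -0.0968 and -0.146). Deviations from means of 3 mice are tied to each other, so these correlations cannot exclude a shared litter or batch. With the replicate number as a block, 0 of the 10 genes and 1 pathway gene higher had an unadjusted p under 0.05, and 0 genes were lower at an adjusted p under 0.05. The genotype difference in the Map1lc3a share ran from 1.66 to 3.63 percentage points over the alternatives and that in the Bnip3 share from 0.14 to 1.49. With 3 mice a genotype, differences within the 95% intervals, 70.7% to 169% of WT over the 10 genes, could not be resolved.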
